A study of Homo sapiens with 6 samples.

Results

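Zinc handling was examined with 10 genes, chosen by their symbols in the deposited table of 54259 gene symbols. These were the metallothionein genes MT1E, MT1F, MT1G, MT1M, MT1X and MT2A, the zinc-sensing transcription factor gene MTF1, and the zinc transporter genes SLC30A1, SLC39A10 and SLC39A14. All 10 symbols were found. RNA-Sequence data came from MDA-MB-231 cells, an established human breast cancer cell line, with 3 libraries of cells carrying a short hairpin RNA against brachyury (MDA-MB-231 shBry) and 3 libraries of cells carrying a control hairpin (MDA-MB-231 shNC). Both groups therefore carry a hairpin, and no untreated cells were sequenced. The labels do not give the hairpin sequence, the time after its delivery, or whether the cells were clones or pools. The comparison asks which zinc genes differ between cells with a hairpin against brachyury, a T-box transcription factor, and cells with the control hairpin.

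Zinc is an essential metal that is toxic in excess, and cells keep almost all of it bound. Metallothioneins are very small, cysteine-rich proteins that bind zinc, copper and cadmium in the cytosol. Free zinc activates MTF1, which binds metal response elements in DNA and raises transcription of the metallothionein genes and of SLC30A1, so a rise of these targets is a common sign of metal load. Transporters of the SLC30 family (ZnT proteins) move zinc out of the cytosol, to the outside of the cell or into vesicles. Those of the SLC39 family (ZIP proteins) move zinc into the cytosol. Metallothionein genes also respond to glucocorticoids, oxidative stress and inflammatory cytokines, and SLC39A14 is known as a gene raised by interleukin 6 in liver.

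The 6 metallothionein genes among the members lie in a cluster on chromosome 16 of GRCh38, within 56565049 to 56684196, which holds 16 of the 17 metallothionein symbols of the table (MT1HL1 is on chromosome 1). They are so alike that short reads can be hard to assign. The coding sequences of the 3 metallothionein genes with reads in every library are shown for that reason, from the GENCODE 29 transcripts. In MT2A the capitals mark the cysteine codons. In MT1E and MT1X they mark the bases that differ from MT2A.
MT2A: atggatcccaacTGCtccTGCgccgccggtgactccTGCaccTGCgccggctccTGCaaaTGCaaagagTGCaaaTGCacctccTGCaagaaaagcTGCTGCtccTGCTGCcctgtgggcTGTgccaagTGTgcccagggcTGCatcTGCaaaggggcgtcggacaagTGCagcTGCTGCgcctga
MT1E: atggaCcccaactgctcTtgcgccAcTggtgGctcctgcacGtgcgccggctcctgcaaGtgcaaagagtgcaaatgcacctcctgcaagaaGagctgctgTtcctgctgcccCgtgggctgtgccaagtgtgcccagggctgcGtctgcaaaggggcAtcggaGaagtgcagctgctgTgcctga
MT1X: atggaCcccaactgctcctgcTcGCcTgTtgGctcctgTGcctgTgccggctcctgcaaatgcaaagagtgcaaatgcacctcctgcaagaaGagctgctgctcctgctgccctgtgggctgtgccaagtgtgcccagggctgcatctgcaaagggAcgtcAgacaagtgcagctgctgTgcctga
Each has 186 bases with the stop codon, and 20 of the 61 codons before the stop are cysteine codons. MT1E and MT1X each differed from MT2A at 14 bases (92.5% identical), MT1F at 16 and MT1M at 19. MT1E and MT1X differed from each other at 17 bases. Outside the coding part the transcripts diverge. Of the stretches of 50 bases in the annotated transcripts, 3.02% in MT2A, 7.1% in MT1E, 1.22% in MT1F, 16.5% in MT1G, 9.87% in MT1M and 18.3% in MT1X also occurred in transcripts of other genes. For MT1X most of these lie in a noncoding transcript that overlaps 18.1% of its exon sequence. These shares count distinct exact stretches, and the share of reads with several matches was not measured. The counts of the paralogs are therefore uncertain to an unknown extent. How reads with several matches were counted is not given in the sources used here.

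Promoters were shown for those members that MTF1 is known to raise and whose sequence was at hand, which were MT2A, MT1X and SLC30A1. The 250 bases before the RefSeq start (GRCh38.p14) are given 5′ to 3′ on the strand of the gene, with each metal response element core in capitals.
MT2A, chr16:56608334-56608583, plus strand: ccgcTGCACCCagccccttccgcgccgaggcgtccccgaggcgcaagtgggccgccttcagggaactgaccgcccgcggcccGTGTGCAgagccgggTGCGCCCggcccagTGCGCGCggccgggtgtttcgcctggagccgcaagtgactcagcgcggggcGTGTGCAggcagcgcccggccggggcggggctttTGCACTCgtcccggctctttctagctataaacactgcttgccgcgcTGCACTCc
MT1X, chr16:56682220-56682469, plus strand: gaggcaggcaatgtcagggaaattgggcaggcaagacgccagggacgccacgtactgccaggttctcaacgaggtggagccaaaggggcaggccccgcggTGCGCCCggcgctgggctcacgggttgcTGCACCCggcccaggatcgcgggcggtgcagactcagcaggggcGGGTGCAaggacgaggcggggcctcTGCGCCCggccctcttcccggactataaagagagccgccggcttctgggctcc
SLC30A1, chr1:211579162-211579411, minus strand: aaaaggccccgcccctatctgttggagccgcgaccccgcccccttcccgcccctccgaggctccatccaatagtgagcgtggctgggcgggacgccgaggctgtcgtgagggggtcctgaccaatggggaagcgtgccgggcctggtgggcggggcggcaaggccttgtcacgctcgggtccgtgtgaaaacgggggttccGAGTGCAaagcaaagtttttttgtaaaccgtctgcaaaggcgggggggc
The core was searched as TGCACNC or TGCGCNC on both strands, so that a core on the other strand reads backwards in the capitals, in the window from 250 bases before to 50 after the start. MT2A held 8 matches, 7 of them before the start, the nearest beginning 8 bases upstream. MT1X held 4 and SLC30A1 held 2, while the window of MTF1 itself held 0. SLC39A10 has 2 annotated starts, with 0 and 1 matches. These RefSeq starts are not at the outermost GENCODE starts of the genes. Those of MT2A (56608584) and MT1X (56682470) lie inside the genes, which begin at 56608199 and 56682424 in GENCODE (plus strand). That of MTF1 (37859592) also lies inside the gene, which begins at 37859620 (minus strand). That of SLC30A1 (211579161) lies upstream of its GENCODE start (211578742, minus strand). Those of SLC39A10 (195656958 and 195657226) lie inside the gene, which begins at 195575977 in GENCODE. Of all 35116 promoter windows of that length, 29.6% held at least 1 match, 8.6% at least 2, 0.601% at least 4 and 0.0199% at least 8. The antioxidant response element core TGACNNNGC occurred once each in the windows of MT2A, MT1X and SLC30A1, and in 13.3% of all windows. The T-box motif AGGTGTGA, searched because brachyury is a T-box factor, had no match in the windows of these 5 members, and 0.98% of all windows held it. Sequence windows were found for 5 of the 10 members, and none was at hand for SLC39A14, MT1E, MT1F, MT1G or MT1M. A match is a description of letters, not of binding.

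**Figure D1:**
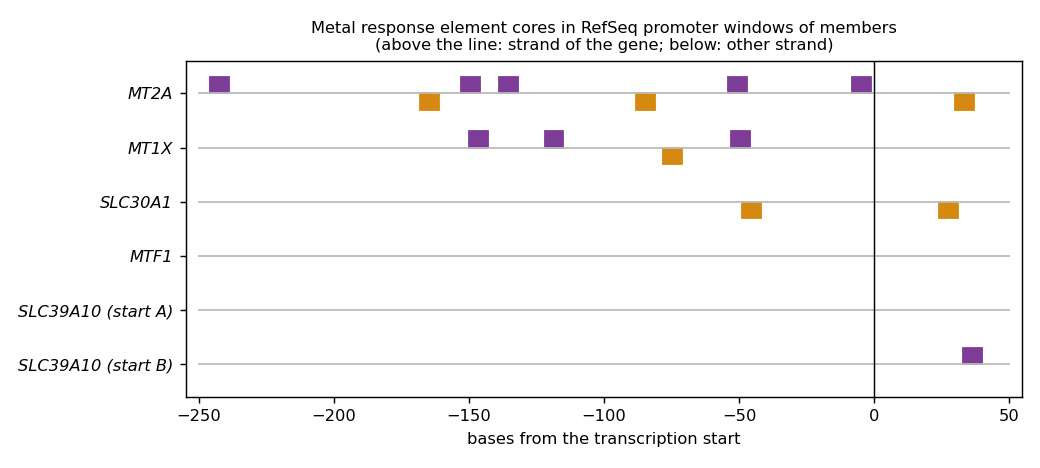
Metal response element cores (boxes) in the promoter windows of 5 members, against the distance in bases from the RefSeq transcription start (vertical line at 0), above each line for the strand of the gene and below it for the other strand. MT2A has 8 cores and MT1X has 4, whereas MTF1 has 0.

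The libraries held between 19319411 and 22985371 counts. After removal of genes with low counts, 15277 genes were tested, and levels are given as CPM, counts scaled to library size after TMM normalization. A gene was called at a Benjamini-Hochberg adjusted p below 0.05 in edgeR's quasi-likelihood test and a fold change above 1.5, the limit named in the methods of the study. By this rule 32.4% of all tested genes were called, 17.1% higher and 15.2% lower in shBry, so a change as such was common. Brachyury, listed as T, had 0 counts in all 6 libraries, so the labels have no check on the gene that was targeted. The shNC libraries thus held no counts of it either, whereas the paper describes brachyury as constitutively overexpressed in these cells. A loss of its transcript in shBry cannot be seen in these counts. The deposited design text calls the RNA pericardial. Of the 7 markers fixed for MDA-MB-231 cells, such as VIM and CD44, all were expressed. Of these, 2 were called lower in shBry (28.6%) and 0 higher. They were CAV1 (-1.11 on the log2 scale) and S100A4 (-0.90). Of the 5 markers fixed as absent or low, 4 had at most 3 counts in every library, and EPCAM lay between 0.962 and 5.01 CPM, higher in shBry. The 6 mesothelial markers summed to 51.6 to 57.9 CPM in shBry and 40.2 to 42.1 in shNC, most of it MSLN, which lay between 27.6 and 49.2 CPM. Of the others, LRRN4 was called higher in shBry (0.76 on the log2 scale) and CALB2 lower (-2.52), and WT1, UPK3B and BNC1 were too low to be tested. CALB2 had 222 counts (11.1 CPM) in shNC replicate 3 and 30 and 29 in shNC replicates 1 and 2, so this control library stood apart on that marker. The part of these markers in the results below was not tested. The 5 fibroblast markers summed to 20.8 to 24.3 CPM in shBry and 19.4 to 23.9 in shNC, nearly all of it COL1A1, with DCN at 0. The 5 leukocyte markers summed to at most 0.229 CPM. The markers of hepatocytes, cells rich in metallothionein, summed to at most 0.632 CPM, with ALB and TTR at 0. Nothing in the labels says that the libraries came from separate cultures, so p-values measure the spread between these libraries only.

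Of the 10 members, 7 had enough counts to be tested, and 3 of these were called, all of them higher in shBry. They were SLC39A14, MTF1 and SLC30A1. The metallothionein genes did not pass the test. The 3 called genes were also the only tested members whose groups did not overlap, a state found for 59.5% of all tested genes, and all shBry libraries lay above all shNC libraries for 30.6% of them. The median log2 fold change of the 7 was 0.28, beside 0.03 over all tested genes. The share called, 42.9%, rests on 7 genes and is set beside 32.4% over all genes. MT1F, MT1G and MT1M were too low to be tested.

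**Figure D2:**
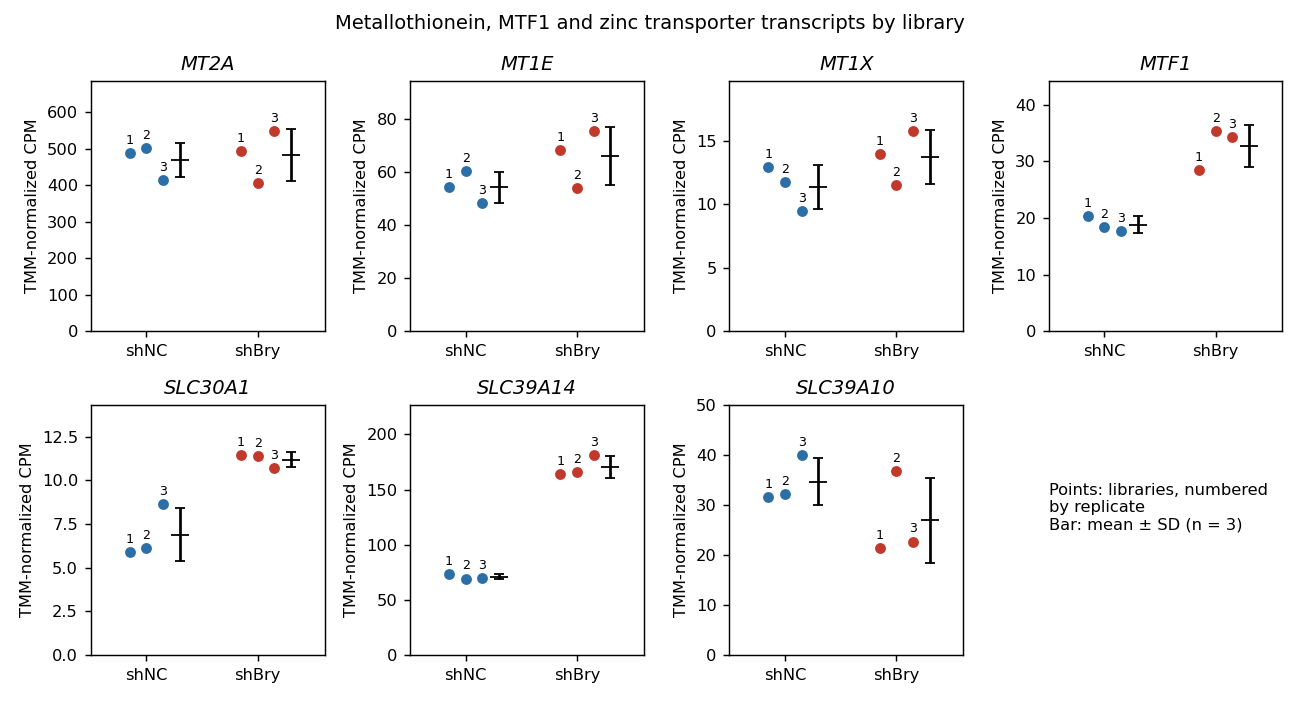
Level of the 7 tested members in each library (TMM-normalized CPM, linear axes from 0), with libraries numbered by replicate and black bars for the mean ± SD (n = 3). The shBry libraries (red) lie above all shNC libraries (blue) for MTF1, SLC30A1 and SLC39A14, and the groups overlap for MT2A, MT1E, MT1X and SLC39A10.

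MT2A was the most abundant zinc gene, and it did not pass the test. In shBry it had 493, 406 and 549 CPM in replicates 1, 2 and 3, and in shNC 490, 502 and 415. The lowest and the highest value both belonged to shBry libraries. Its mean was 483 ± 71.9 CPM in shBry and 469 ± 46.8 in shNC (SD, n = 3), a log2 fold change of 0.04 with a 95% interval from -0.19 to 0.27 (adjusted p = 0.763, edgeR's quasi-likelihood test). The interval reaches neither a 1.5-fold rise nor a 1.5-fold fall. The sign turned when shBry replicate 3 (-0.06) or shNC replicate 3 (-0.066) was left out.

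MT1E was the second metallothionein in abundance. It had 68.5, 54.0 and 75.6 CPM in the shBry replicates and 54.3, 60.3 and 48.6 CPM in the shNC replicates. The groups overlapped because shBry replicate 2 lay below 2 of the shNC libraries. The difference was 0.28 on the log2 scale (SE 0.12, 95% interval 0.02 to 0.54, adjusted p = 0.0672, edgeR), below the fold change limit. The adjusted p moved between 0.00417 without shBry replicate 2 and 0.312 without shBry replicate 3, and the gene was not called in any of these fits.

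MT1X was the third and the last metallothionein with more than a trace of reads. It had 13.9, 11.5 and 15.8 CPM in shBry and 12.9, 11.8 and 9.47 CPM in shNC. The groups overlapped, with 0.27 on the log2 scale (95% interval -0.07 to 0.61, adjusted p = 0.167, edgeR). In all 3 genes, shBry replicate 2 was the lowest shBry library, shBry replicate 3 the highest, and shNC replicate 3 the lowest shNC library. The order of shNC replicates 1 and 2 was not shared, with MT1X higher in replicate 1 and the other two in replicate 2. Leaving out single libraries moved the value of MT1X from 0.13 without shNC replicate 3 (adjusted p = 0.535) to 0.37 without shBry replicate 2 (adjusted p = 0.0538, edgeR), and it was 0.16 without shBry replicate 3.

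The ratio of these genes within a library varied less over the replicates than their levels. For each read of MT2A there were 0.139, 0.133 and 0.138 reads of MT1E in shBry and 0.111, 0.120 and 0.117 in shNC. All shBry ratios lay above all shNC ratios, with means of 0.137 ± 0.00307 and 0.116 ± 0.00472 (SD, n = 3), a ratio of 1.18 between the groups. The ratio of MT1X to MT2A was 0.0283, 0.0283 and 0.0288 in shBry and 0.0264, 0.0235 and 0.0228 in shNC, again without overlap. Each of these differences had p = 0.1 in a two-sided exact permutation test over the libraries, the smallest that 3 against 3 can give, and p below 0.05 could not be reached. Both ratios divide by the same MT2A counts, so the second is not an independent repeat of the first. Both ratios were chosen after the values were seen. Among single tested genes, groups without overlap were common (59.5%), and the share for ratios of other genes was not examined. MT2A made up 85.6% to 86.0% of all reads on the 17 metallothionein symbols in shBry and 87.3% to 87.8% in shNC. The summed level of these symbols was 563 ± 84.9 CPM in shBry and 535 ± 54.1 in shNC.

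**Figure D3:**
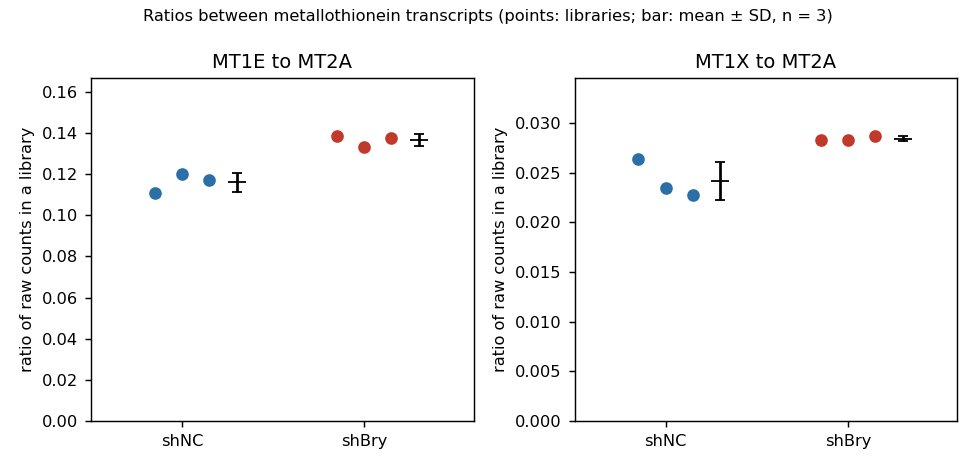
Ratio of raw counts of MT1E to MT2A (left) and of MT1X to MT2A (right) in each library, with black bars for the mean ± SD (n = 3) and axes that start at 0. The 3 shBry points lie above the 3 shNC points in both panels, at 0.133 to 0.139 against 0.111 to 0.120 for MT1E.

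The other metallothionein genes were close to silent. MT1F had 3, 6 and 0 counts in the shBry replicates and 9, 11 and 2 in the shNC replicates, and was too low to be tested. MT1G and MT1M had 0 counts in all 6 libraries. A count of 0 allows up to 3 counts, between 0.126 and 0.162 CPM depending on the library, which covers counting error only. Outside the members, MT1B and MT1JP had at most 5 counts in a library, and MT1A and MT3 at most 1. MT1H, MT1HL1, MT1L, MT1DP, MT1IP, MT1CP and MT4 had 0 in every library. Of 11 other metallothionein symbols none could therefore be tested. The window of MT1H held 8 metal response element cores, as many as that of MT2A.

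MTF1, the factor that senses zinc and acts on the metallothionein promoters, was higher in shBry. The gene lies on chromosome 1 from 37809567 to 37859620 (minus strand, GRCh38). It had 28.4, 35.4 and 34.3 CPM in shBry and 20.4, 18.5 and 17.6 CPM in shNC. The lowest shBry library lay above the highest shNC library. The mean was 32.7 ± 3.74 against 18.8 ± 1.44 CPM (SD, n = 3), 0.80 on the log2 scale (SE 0.12, 95% interval 0.54 to 1.05, adjusted p = 7.36e-05, edgeR). MTF1 is activated mainly through zinc binding to the protein, which RNA levels do not show.

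SLC30A1, which encodes the zinc exporter ZnT1 of the cell surface and is itself a target of MTF1, was higher in shBry as well. It lies on chromosome 1 from 211571568 to 211578742 (minus strand). It had 11.5, 11.4 and 10.7 CPM in shBry and 5.91, 6.10 and 8.66 CPM in shNC. The shBry libraries lay close together, and shNC replicate 3 stood nearest to them. The difference was 0.70 on the log2 scale (SE 0.17, 95% interval 0.34 to 1.06, adjusted p = 0.00273, edgeR), a fold change of 1.63. With each library left out in turn it ranged from 0.60 to 0.87, always above the limit.

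SLC39A14, which encodes the importer ZIP14 for zinc, non-transferrin iron and manganese, changed most. It lies on chromosome 8 from 22367249 to 22434129 (plus strand). It had 164, 166 and 182 CPM in shBry against 73.4, 69.3 and 69.5 CPM in shNC. The groups were far apart and the libraries within each were alike. The difference was 1.27 on the log2 scale (SE 0.08, 95% interval 1.10 to 1.44, adjusted p = 1.64e-08, edgeR), a fold change of 2.41. It was the only member called with a fold change limit of 2.

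SLC39A10, which encodes the importer ZIP10 of the cell surface, was the only tested member with a negative log2 fold change. It lies on chromosome 2 from 195575977 to 195737702 (plus strand). It had 21.5, 36.8 and 22.7 CPM in shBry and 31.7, 32.2 and 40.1 CPM in shNC. Replicates 1 and 3 of shBry lay below all shNC libraries, and replicate 2 lay among them. The difference was -0.36 on the log2 scale (SE 0.18, 95% interval -0.73 to 0.02, adjusted p = 0.103, edgeR), and SLC39A10 was not called. It depended on this library: without shBry replicate 2 the log2 fold change was -0.66 (adjusted p = 0.000181, edgeR), and the gene was called. The same library was the lowest of its group for MT2A, MT1E and MT1X. In shNC, replicate 3 had this pattern, the highest of its group for SLC39A10 and the lowest for those 3 genes. What sets these libraries apart was not tested.

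The levels of the tested members were compared per kilobase of the longest coding transcript in GENCODE 29. On this scale of CPM per kilobase, MT2A stood at 596 ± 59.6 in shNC, MT1E at 74.6 ± 8.05, MT1X at 21.2 ± 3.27, SLC39A14 at 15.2 ± 0.491, SLC39A10 at 6.38 ± 0.867, MTF1 at 2.36 ± 0.18 and SLC30A1 at 1.26 ± 0.281. Levels of neighbours in this order differed by more than the sum of their SDs. In shBry the order changed in 1 place. SLC39A14 stood at 36.7 ± 2.08 CPM per kilobase there, above MT1X at 25.5 ± 3.99, while SLC39A10 (4.97 ± 1.57) and MTF1 (4.10 ± 0.469) were no further apart than their SDs. MT2A stood at 614 ± 91.4, still far above all others.

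The genes outside the members whose level over the 6 libraries lay nearest to that of MT2A were BRI3, WASH3P, TMEM256, HINFP and NOG. Likeness was the root mean square distance of the log2 CPM, each gene centred on its own mean, over 9407 genes with at least 10 CPM. The distances lay between 0.042 and 0.054, with a median of 0.28 over all these genes. MT1E, at 0.12, would have ranked at 482 and MT1X, at 0.13, at 577.

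The other genes of zinc transport were 22 symbols, the remaining SLC30 and SLC39 genes and TMEM163, of which 14 were tested. Of these, 2 were called higher and 1 lower in shBry, 21.4% against 32.4% of all genes, and the median log2 fold change was 0.02. SLC39A4, the gene of ZIP4, a zinc importer known from the intestine, rose most. It had 121, 95.8 and 118 CPM in shBry and 49.6, 50.1 and 45.0 CPM in shNC, 1.21 on the log2 scale (SE 0.10, adjusted p = 2.51e-07, edgeR). Its groups did not overlap, and its change was close in size to that of SLC39A14. SLC30A7, whose product ZnT7 loads zinc into the Golgi, had 27.8, 39.9 and 34.5 CPM in shBry and 16.3, 16.3 and 23.8 CPM in shNC. All shBry libraries lay above all shNC libraries, with 0.86 on the log2 scale (SE 0.16, adjusted p = 0.000499, edgeR). SLC30A3, whose product ZnT3 loads zinc into synaptic vesicles, was the gene called lower. It had 6.30, 6.41 and 6.78 CPM in shBry and 10.7, 12.6 and 9.62 CPM in shNC, -0.75 on the log2 scale (SE 0.15, adjusted p = 0.000836, edgeR). All shBry libraries lay below all shNC libraries.

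An adjusted p below 0.05 without the fold change was reached by 3 more transporter genes. SLC30A5 (log2 fold change 0.49, adjusted p = 0.00457) and SLC39A6 (0.38, adjusted p = 0.0401) had positive values and SLC39A3 (-0.46, adjusted p = 0.00207) a negative one in the edgeR test. SLC39A6 encodes ZIP6, the nearest relative of ZIP10, and the point estimates of both genes had opposite signs, a difference that was not tested. SLC39A1, the most abundant transporter gene at 300 ± 22.8 CPM in shNC, had -0.10 on the log2 scale (adjusted p = 0.335, edgeR), and 69.1% of its exon sequence is overlapped by other annotated genes. SLC30A2, SLC30A8, SLC30A10 and SLC39A12 had 0 counts in all libraries. SLC39A7, whose product ZIP7 releases zinc from the endoplasmic reticulum, had at most 4 counts in any library. It lies on chromosome 6 among 10 other coding genes that start within 100 kb, of which 6 were listed at 0 in all libraries and 9 at no more than 10 counts. RPS18, a ribosomal protein gene that every cell uses, was among those at 0, so the level of SLC39A7 cannot be read from these counts.

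**Figure D4:**
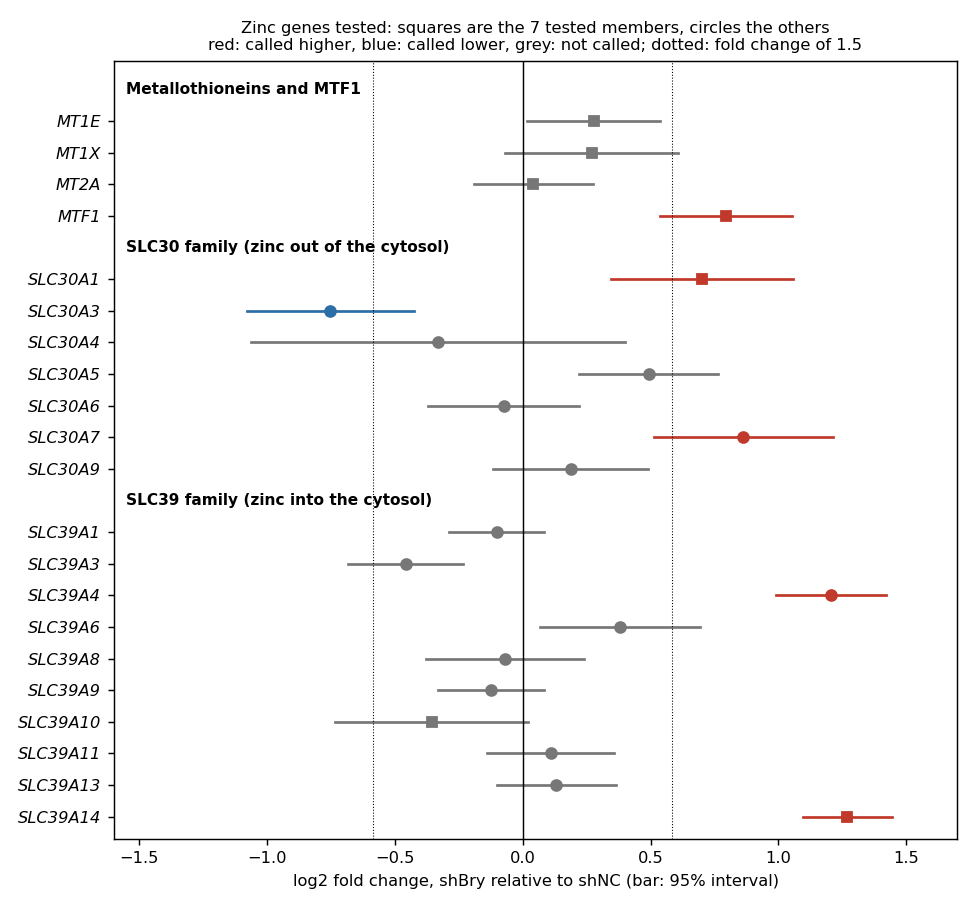
Log2 fold change of shBry relative to shNC (horizontal axis) with its 95% interval for the 7 tested members (squares) and 14 other zinc transporter genes (circles), with red for genes called higher, blue for genes called lower and dotted lines for a fold change of 1.5. SLC39A14 and SLC39A4 lie furthest to the right, at 1.27 and 1.21, while MT2A lies at 0.04.

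Lists of genes that metals or the known inducers of metallothionein act on were set beside the members. They are described by counts and medians, against 32.4% called and a median log2 fold change of 0.03 over all tested genes. Of 14 tested copper genes 1 was called (7.14%), with a median of 0.06. This was SOD1, the gene of copper-zinc superoxide dismutase, which was lower in shBry at 89.5 ± 8.65 CPM, against 207 ± 1.38 in shNC (SD, n = 3), which is -1.21 on the log2 scale (adjusted p = 5.12e-08, edgeR). The copper importer SLC31A1 (0.02) and the copper exporters ATP7A (0.02) and ATP7B (-0.30) were not called.

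Iron genes moved in both directions. Of 17 tested, 4 were called higher and 3 lower, with a median of 0.20. LCN2, a secreted protein that binds iron carriers, had 1092, 1233 and 1226 counts in shBry and 1, 1 and 3 in shNC. HFE, a regulator of iron uptake, was lower (log2 fold change -0.98, adjusted p = 2.53e-05) and FTL, the ferritin light chain, whose processed pseudogenes can share its reads, higher (0.76, adjusted p = 1.16e-05, edgeR).

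Of 19 oxidative stress genes, targets or partners of NRF2, 6 were called higher and 2 lower, with a median of 0.27. The cystine transporter gene SLC7A11 (log2 fold change 2.32), MAFF (1.805) and OSGIN1 (1.26) rose most. HMOX1, the heme oxygenase gene that heavy metals strongly induce, was 56.1 ± 1.18 CPM in shBry and 39.1 ± 1.71 in shNC, and its log2 fold change of 0.52 lay below the limit (adjusted p = 0.000203, edgeR).

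Heat shock genes, which cadmium and misfolded proteins induce, had the lowest median of these lists, -0.70. Of 16 tested genes, 9 were lower in shBry by the call rule and 0 higher. HSP90AA1 (-1.43), HSPE1 (-1.28) and HSPA8 (-1.16) are chaperone genes and fell most among those of at least 10 CPM, and 23.9% of the exon sequence of HSPE1 lies under overlapping genes. HSPA1A had at most 1 count in any library, while HSPA1B had 34 to 40 in shBry and 70 to 90 in shNC. How reads that match both genes were counted is not given in the sources used here. The count of HSPA1A is therefore not read as absence.

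Of 14 tested glucocorticoid targets, 9 were called higher and 1 lower, with a median of 0.95. ERRFI1 (2.41), DUSP1 (2.41) and BIRC3 (2.28) rose most, and all 3 also respond to growth factors or cytokines. Also called higher were TSC22D3 (1.61), SGK1 (1.38), ANGPTL4 (1.34), CEBPD (1.26), KLF9 (0.64) and PER1 (0.63), while TSC22D4 was called lower (-0.59). FKBP5 (0.31), TFCP2L1 (0.36), GLUL (-0.36) and the receptor gene NR3C1 (0.47) were not called, and ZBTB16 had 0 counts in all libraries. MT2A, a glucocorticoid target in many cells, is the member with the value nearest to 0. None of these lists was tested as a set.

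**Figure D5:**
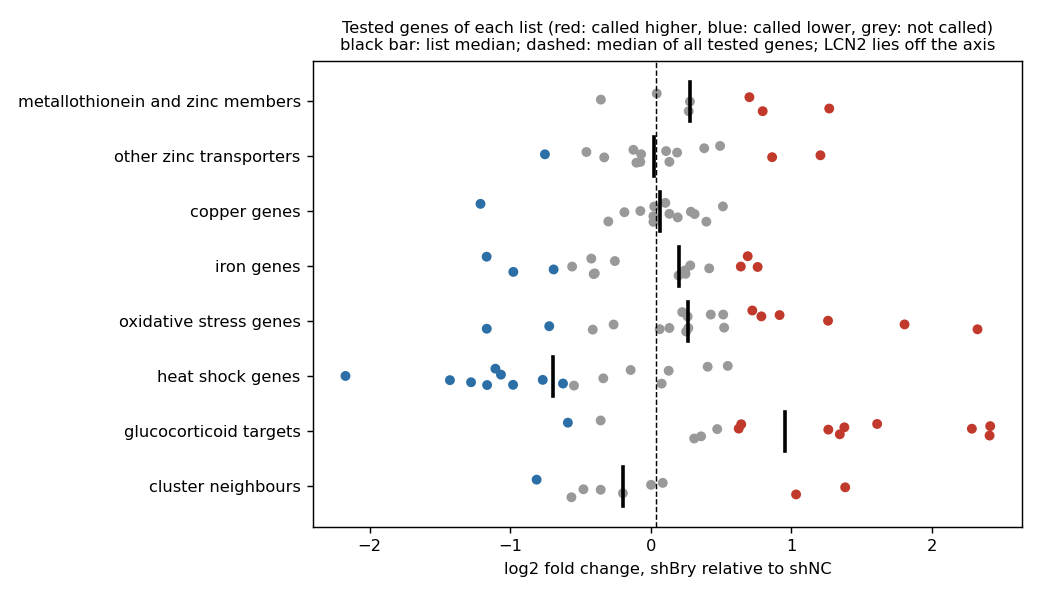
Log2 fold change of shBry relative to shNC for each tested gene of 8 lists, colored red (called higher), blue (called lower) or grey, with black bars for list medians and a dashed line for the median of all tested genes (0.03), LCN2 being off the axis. The heat shock median lies at -0.70 and the glucocorticoid median at 0.95, with the members at 0.28.

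The neighbours of the metallothionein cluster were examined for changes shared along the chromosome. Within 500 kb on either side lie 11 coding genes, of which 9 were tested, 2 called higher and 1 lower, with a median log2 fold change of -0.20. The share called, 33.3%, lay close to the 32.4% over all tested genes. For 6 of the 9 the groups did not overlap, a state found for 59.5% of all tested genes. HERPUD1, a gene of the unfolded protein response, was at 88.5 ± 0.593 CPM in shNC and 230.7 ± 13.5 CPM in shBry (SD, n = 3), higher by 1.38 on the log2 scale (adjusted p = 5.59e-09, edgeR). OGFOD1 rose (1.03, adjusted p = 8.19e-08) and NLRC5 fell (-0.81, adjusted p = 0.000161, edgeR). Of the metallothionein genes between them, MT2A, MT1E and MT1X were not called, and the others were too low to be tested.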

How the data were processed

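RNA of MDA-MB-231 shBry and shNC cells (3 libraries each) was sequenced. The values deposited were raw counts of reads per gene symbol, not normalized. The submitters' processing notes name HISAT2 2.0.4, HTSeq and GRCh38, while the annotation, the strand setting and the statistical test are not given in the sources used here. A count of 0 allows up to 3 counts, 0.131 to 0.155 CPM of the unscaled totals.

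Genes were filtered with filterByExpr (minimum count 10), scaled by TMM and compared with the quasi-likelihood test of edgeR 4.0.16 (R 4.3.3), without a block. Standard errors were the log2 fold change divided by the square root of F. The test was run on simulated counts drawn from the kind of model that it assumes. That run does not check whether the libraries are independent. Positions, lengths and shared stretches came from GENCODE 29 on GRCh38, by symbol, and promoters from RefSeq (GRCh38.p14). Members, lists and alternatives (DESeq2 1.42.0, limma-voom 3.58.1, scaling, filters, thresholds, block, left-out libraries) were chosen with earlier results of these data known. Named genes were all members and other metallothioneins, transporters called or at 0, and in each further list the 3 largest called changes of at least 10 CPM. Further genes were named after their values were seen.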

Additional observations from a re-analysis of the deposited data

How the results depend on the processing

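For 10 zinc genes (7 members and 3 called transporters), 120 log2 fold changes were recomputed under other settings, and 117 kept their direction and their side of the call. The exceptions were MT2A, at -0.06 without shBry replicate 3 and -0.066 without shNC replicate 3 (range over left-out libraries -0.066 to 0.14), and SLC39A10, called at -0.66 without shBry replicate 2. With a fold change limit of 2, 1 member, 1 other transporter, 2 iron genes, 4 oxidative stress genes and 2297 genes in all were called. Without a limit, 6 transporters, 4 copper genes, 15 iron genes, 14 oxidative stress genes, 6 cluster neighbours and 8139 genes in all were called. Copper genes numbered 2 without an expression filter and 1 to 2 with single libraries left out. Leaving out single libraries gave 3 to 4 called members and 4587 to 5025 called genes. Same-numbered libraries did not all deviate together, with correlations of deviations over genes of 0.246, -0.129 and -0.0539. Only replicate 1 of shBry correlated best with its own number, so the numbers were not taken as pairs. The largest correlation of any shBry with any shNC library was 0.307, between shBry replicate 2 and shNC replicate 3. The replicate number as a block changed no call among the members and gave 4914 called genes. MT1F, MT1G and MT1M were too low to be tested at this depth.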
